A study of Mus musculus with 12 samples.

Results

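The Toll-like receptors (TLR) and the RP105 complex of resting B (RB) cells were followed as 9 genes of the 50090 gene names on the arrays: Tlr1, Tlr2, Tlr3, Tlr4, Tlr6, Tlr7, Tlr9, Cd180 and Ly86. They were taken by symbol, and their 10 probes lay among 61307. RNA of RB cells from spleens of BALB/c mice, isolated by removal of CD43-positive cells, was hybridised to 12 single-colour (Cy3) arrays, with 2 arrays for each of 6 conditions. Cells were left unstimulated or were cultured for 4 h with Pam2CSK4, with anti-CD86, with Pam2CSK4 and anti-CD86 together (TLR2.CD86), with anti-CD40, or with anti-CD40 and Pam2CSK4 together. The labels describe all mice as female, 6 weeks old, while the methods give male or female mice. No array with an isotype control antibody was analysed here, so that binding of an antibody as such and its target cannot be told apart. The captions of the study describe the microarray data as from 2 biological replicates. Neither they nor the labels say whether the arrays of a condition came from separate mice. The p-values therefore measure the spread between these samples, which may in part be technical.

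TLRs are receptors of innate immunity that recognise microbial molecules and signal through the adaptor MyD88 or TRIF to NF-kB. TLR2 pairs with TLR1 or TLR6 at the cell surface and binds bacterial lipopeptides, of which Pam2CSK4 is a synthetic form. TLR4 binds lipopolysaccharide together with MD-2, and TLR3, TLR7 and TLR9 bind nucleic acids in endosomes. RP105, the product of Cd180, is a TLR homolog of B cells that lacks the signalling domain and is held at the surface by MD-1, the product of Ly86.

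The stretch before the annotated start of Tlr2 is shown because Tlr2 codes for the receptor of the ligand used and because matches to the NF-kB motif lie in it. Both starts of Tlr1 are shown because Tlr1 changed most. The sequences are those of RefSeq on build GRCm38.p6, read 5′ to 3′ on the minus strand from 250 bases before the start to 10 bases from the start on. Capitals mark the matches to the motifs searched on both strands. The Tlr2 stretch is chr3:83841599-83841858, and those of Tlr1 are chr5:64933549-64933808 and chr5:64932690-64932949.

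Tlr2: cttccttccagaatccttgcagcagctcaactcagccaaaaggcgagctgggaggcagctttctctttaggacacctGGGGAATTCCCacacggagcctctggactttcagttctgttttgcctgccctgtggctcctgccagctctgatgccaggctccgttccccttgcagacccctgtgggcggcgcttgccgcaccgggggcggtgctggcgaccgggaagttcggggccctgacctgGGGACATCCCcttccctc

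Tlr1, upstream start: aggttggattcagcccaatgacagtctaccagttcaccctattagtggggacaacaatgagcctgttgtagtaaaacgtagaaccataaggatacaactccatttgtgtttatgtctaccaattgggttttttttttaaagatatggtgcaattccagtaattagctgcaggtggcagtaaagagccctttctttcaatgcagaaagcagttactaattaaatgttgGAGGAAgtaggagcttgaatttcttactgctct

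Tlr1, downstream start: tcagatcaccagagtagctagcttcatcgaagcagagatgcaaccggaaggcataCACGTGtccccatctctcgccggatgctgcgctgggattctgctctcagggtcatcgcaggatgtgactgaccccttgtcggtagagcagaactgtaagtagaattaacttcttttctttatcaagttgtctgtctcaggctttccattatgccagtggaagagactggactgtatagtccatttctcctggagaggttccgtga

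With the start counted as 0, the first capitals in Tlr2 are overlapping matches to the NF-kB site that begin at -173 and -172, and the other match begins at -8. An NF-kB site was found in 8.46% of the 32851 promoter windows of the same kind. In Tlr1 the capitals are a PU.1 core (GAGGAA, in 28.3% of windows) at -23 of the upstream start and an E box (CACGTG, in 7.15%) at -195 of the downstream start, and neither Tlr1 window held an NF-kB site. The full windows of 250 bases before to 50 bases after the start gave the following matches for the other genes. Tlr9 held an octamer (ATTTGCAT, in 1.74% of windows) at -72, PU.1 cores at -112 and 12, and an AP-1 site (TGANTCA, in 7.81%) at -58. Of the Tlr6 windows, 1 held overlapping matches to GAAANNGAA, the core of an interferon response element (in 8.56%), at -115 and -109, and the Ly86 window held this motif at 0. Tlr3 held an NF-kB site at -211, and the Cd180 windows held none of the 6 motifs. A match describes letters in these windows and does not show that a factor binds.

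Tlr1 and Tlr6 are neighbours in the order of protein-coding genes and code for closely related proteins, so their probes were compared. The first 30 bases of the 60-base probes are shown.

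Tlr1 probe: caagcatggacttttttgggcaaacctaag

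Tlr6 probe: ttatgaagttagccttagtcaatgaggatg

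Cd180 probe: gcacttgctcaaacatttactttttagaat

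The longest run that any pair of the 10 probes had in common was 8 bases. Each gene had 1 probe except Tlr3, which had 2. Signals are given as log2 of the processed intensity over the 75th percentile of its array, so that a level of 0 is an intensity at that percentile, which was 234 to 390. Levels are compared between arrays for each probe and not between probes.

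Of the 9 genes, 7 were well above background on all 12 arrays and entered the tests. The Cd180 probe was well above background on 1 array, the second of TLR2.CD86, and its intensities of 6.26 to 25.7 were close to the detection limit, the dimmest spot above background on each array being 19.5 to 32.9. Neither Tlr3 probe was well above background on any array, and the intensity of the brighter was 4.19 to 9.08. For both genes no fold change is given, and these probes do not tell whether the transcripts were present at a lower level. Ly86, the partner of Cd180, was bright, with intensities of 4380 to 7757.

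The B cell label was checked against marker genes. Of 10 B cell markers, 9 were on the array and were well above background on every array, among them the B cell surface gene Ms4a1. Cd79b was saturated on all 12 arrays. Detection alone did not set the B cell markers apart, as 46.6% to 60.6% of all spots were well above background on each array. Of the markers on the array, 8 of 9 for T cells and 5 of 6 for NK cells were well above background on all 12. The same held for 5 of 7 red cell and platelet markers and 8 of 9 dendritic cell markers. Of 18 monocyte, macrophage and neutrophil markers, 17 were on the array, 14 were well above background on all 12 arrays, Fcgr1 was on 7 arrays, and the macrophage markers C1qa and Mrc1 were on none. Relative to the 75th percentile, the summed intensity of the 13 of these myeloid markers that were measured on all arrays without saturation was 327 to 330 in unstimulated cells, 230 to 257 with Pam2CSK4, 209 to 231 with anti-CD86, 179 to 201 with TLR2.CD86, 180 to 216 with anti-CD40 and 220 to 228 with anti-CD40 and Pam2CSK4. The granulocyte genes Mpo and S100a8 made up 85.5% to 85.6% of this sum in unstimulated cells and 76.6% to 82.1% in stimulated ones. The sum was higher in both unstimulated arrays than in any stimulated array, but the sum of the other 11 markers was not: it was 47.5 in both unstimulated arrays, 46.5 to 51.1 with Pam2CSK4, 39.1 to 43.7 with anti-CD86, 41.1 to 47.1 with TLR2.CD86, 32.4 to 38.7 with anti-CD40 and 43.6 to 45.5 with anti-CD40 and Pam2CSK4. The sum of 8 B cell markers was 169 in both unstimulated arrays and 152 to 231 in the stimulated ones. In RNA of a whole cell preparation, fewer cells of a type and less RNA per cell cannot be told apart.

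The arrays lay on 2 slides, and several of these genes differed between the slides. Of the 8 arrays on slide 1, 2 were unstimulated and 2 had anti-CD40 with Pam2CSK4, and the remaining 4 conditions were split, with 1 array on either slide. In each split condition the slide 2 array was the second replicate, so the slide and a separate batch of cells or RNA cannot be told apart. Within those 4 conditions the slide 2 array was higher than the slide 1 array by 0.41 (0.38 to 0.46) on the log2 scale for Tlr9 and by 0.29 (0.20 to 0.39) for Tlr4. It was lower in all 4 conditions for Tlr7, Tlr2, Tlr1 and Ly86, with mean differences of -0.38, -0.26, -0.22 and -0.22. For Tlr6 the difference changed sign between conditions (-0.60 to 0.21). The fit over the 6 conditions is therefore followed by the fit with the slide as a block where the block changes a call of these genes, and the gene lists are counted under both fits.

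**Figure D1:**
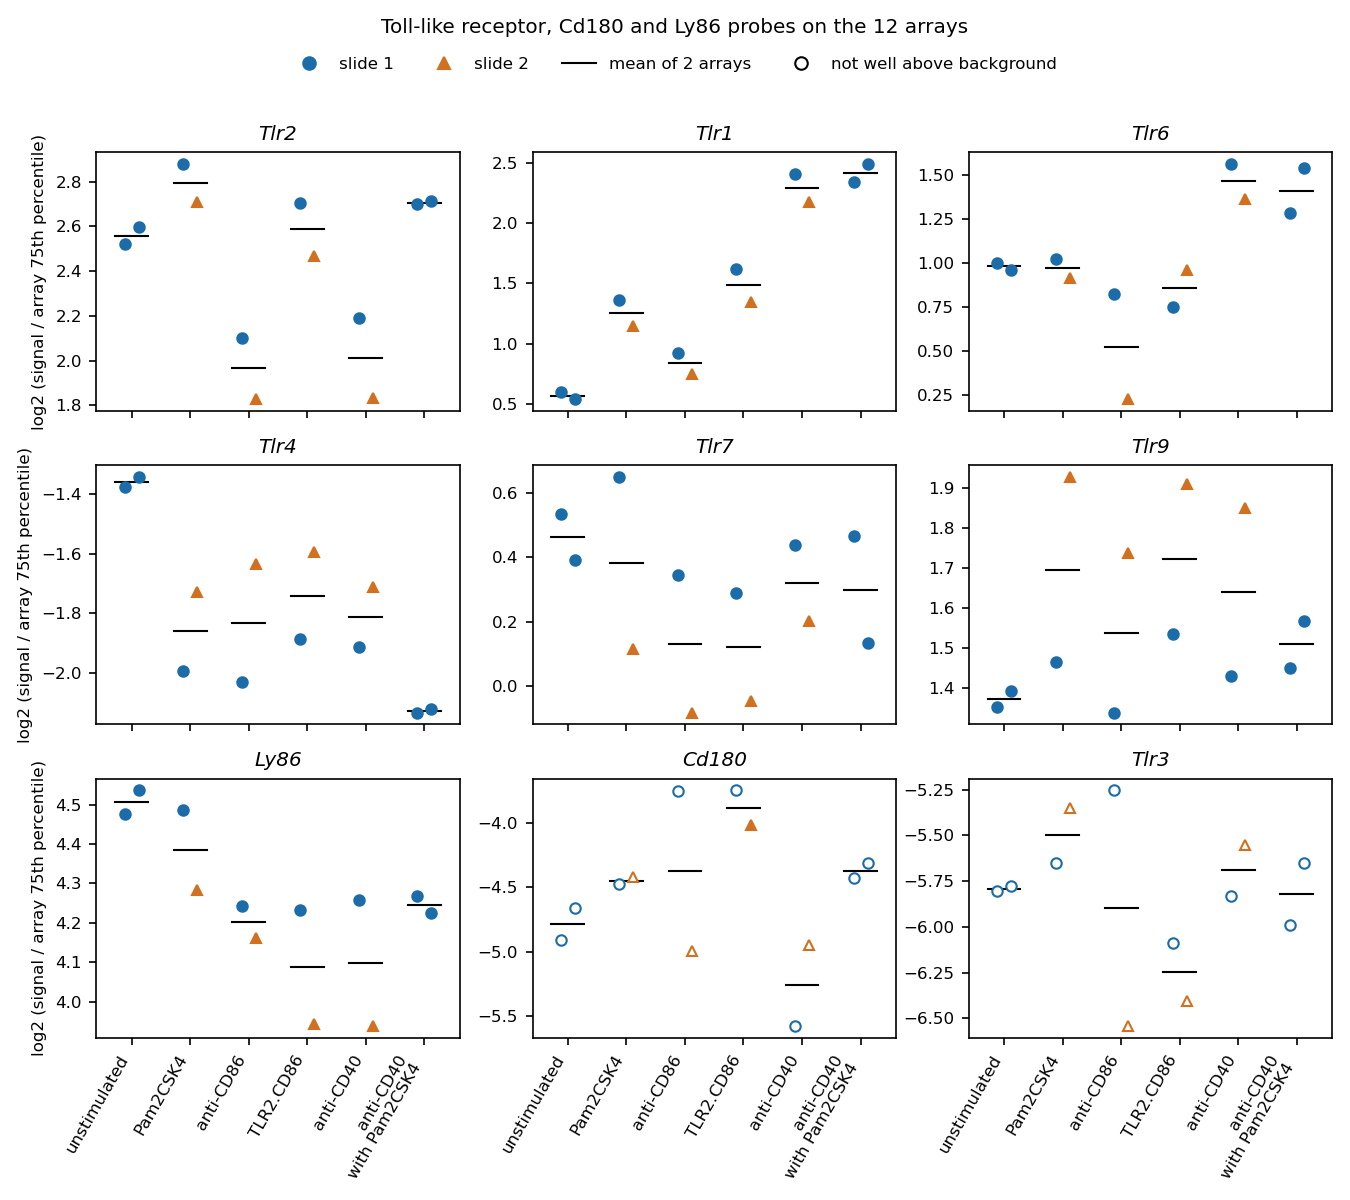
Each panel plots 1 gene as log2 of the signal over the 75th percentile of the array (vertical axis, a log scale that differs between panels) in the 6 conditions, with circles for slide 1, triangles for slide 2, open symbols where the probe was not well above background, and a line at the mean of 2 arrays. Tlr1 is lowest in unstimulated cells and highest with anti-CD40, with or without Pam2CSK4, and the Tlr9 and Tlr4 arrays of slide 2 lie above their slide 1 partners.

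The 3 average comparisons summarise each signal over its backgrounds. The average Pam2CSK4 effect sets the 6 arrays with Pam2CSK4 against the 6 without, the average anti-CD40 effect sets the 4 arrays with anti-CD40 against unstimulated cells and Pam2CSK4 alone, and the average anti-CD86 effect does the same for anti-CD86 and TLR2.CD86. A gene is called changed when its adjusted p from limma, over all 31596 probes tested, was under 0.05. For Pam2CSK4, 2 of the 7 genes tested were called, Tlr1 and Tlr2, both higher, beside 2.85% of all probes. For anti-CD40, 1 gene was called, Tlr1, beside 20.4% of all probes, and for anti-CD86 none was called, beside 6.78%. The slide block raised the counts to 4, 5 and 4 genes, beside 27.1%, 47.9% and 34.2% of all probes. The calls for Pam2CSK4 were lost with arrays scaled to their median (0.52 for Tlr1 and 0.56 for Tlr2, adjusted p of 1 and 0.966), without the filter on dim probes (adjusted p = 0.142 for both) and among the slide 1 arrays alone (0.50 and 0.48, adjusted p of 0.0602 and 0.0521). The median log2 change of the 7 genes was 0.09, -0.11 and -0.29 in the 3 comparisons, and that of all probes was -0.01, 0.03 and -0.02. In a test for any difference among the 6 conditions, Tlr1 (adjusted p = 0.000956) and Tlr2 (adjusted p = 0.0248) were called, beside 20.1% of all probes. The other 5 genes were not, with adjusted p of 0.0556 for Tlr6, 0.112 for Tlr4, 0.24 for Ly86 and 0.72 for Tlr7 and Tlr9.

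**Figure D2:**
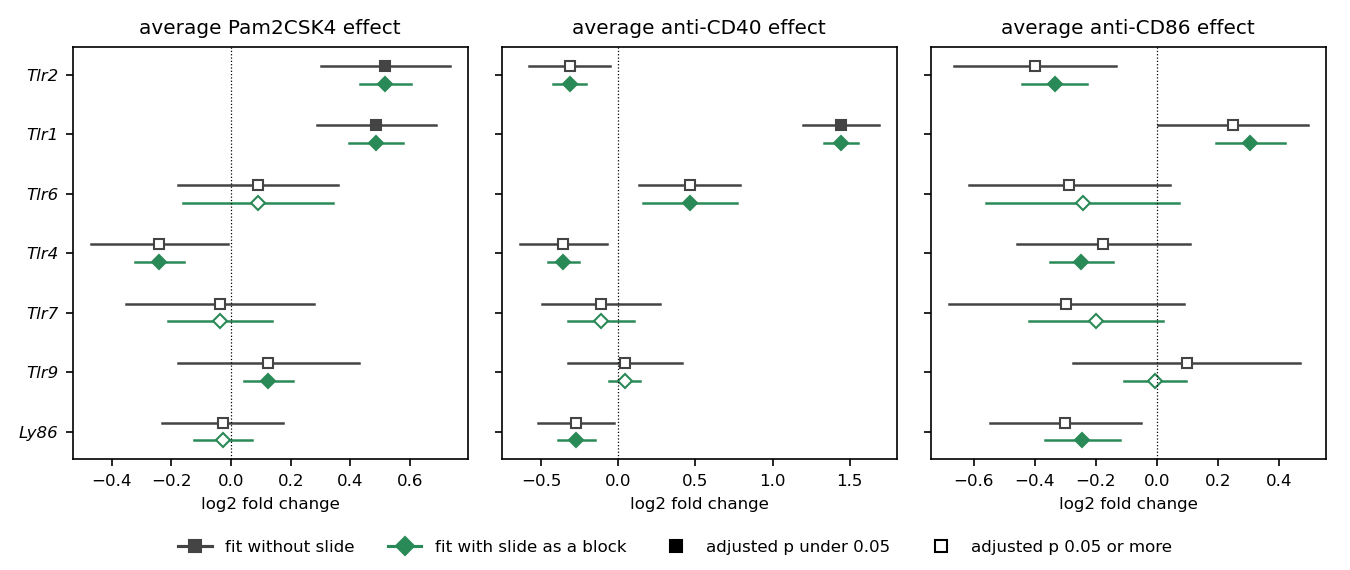
The 3 panels plot the average effect of Pam2CSK4, anti-CD40 and anti-CD86 on the 7 genes tested as a log2 fold change with its 95% confidence interval (horizontal axis), with squares for the fit without slide, diamonds for the fit with slide as a block, and filled symbols for an adjusted p under 0.05. The anti-CD40 effect on Tlr1, 1.44, is the longest distance from 0 in the 3 panels, and the intervals are narrower with the slide block, least so for Tlr6.

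Tlr2 codes for the receptor of Pam2CSK4 and was higher with this ligand than without it, as an average over the 3 antibody states. Its mean with TLR2.CD86 (2.59) and with anti-CD40 and Pam2CSK4 (2.71) was near that of unstimulated cells (2.56). Its log2 level was 2.52 and 2.60 in unstimulated cells and 2.88 and 2.71 with Pam2CSK4. It was 2.10 and 1.83 with anti-CD86, and 2.71 and 2.47 with TLR2.CD86. It was 2.19 and 1.83 with anti-CD40, and 2.70 and 2.71 with anti-CD40 and Pam2CSK4. Both arrays with Pam2CSK4 lay above both arrays without it under each of the 3 antibody states, while the 6 arrays with (2.47 to 2.88) and the 6 without (1.83 to 2.60) overlapped when pooled. The average Pam2CSK4 effect was 0.52 ± 0.09 (log2, SE), or 1.43-fold, with an adjusted p of 0.0302 (limma). An exact two-sided permutation test of the 6 arrays with against the 6 without gave p = 0.00649, where 0.00216 is the smallest p possible, and this test was run on all 7 genes.

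The call of Tlr2 was lost (adjusted p up to 0.109) in 10 of the 12 fits that left out 1 array, and it held without either anti-CD40 array. Under the slide block the adjusted p was 0.000434 at the same value. Taken alone, Pam2CSK4 against unstimulated cells was not called (0.24 ± 0.16, adjusted p = 0.479), nor was TLR2.CD86 against anti-CD86 (0.62, adjusted p = 0.311) or anti-CD40 with Pam2CSK4 against anti-CD40 (0.69, adjusted p = 0.0706). With the slide block these were 0.37, 0.62 and 0.56, with adjusted p of 0.0238, 0.00641 and 0.00385. The size of the Pam2CSK4 effect was not shown to depend on an antibody, since neither interaction term of Tlr2 was called (0.39 for CD86, adjusted p = 0.969, and 0.46 for CD40, adjusted p = 0.3).

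The antibodies given without Pam2CSK4 had the lowest Tlr2 levels. Against unstimulated cells the log2 difference was -0.59 ± 0.16 with anti-CD86 (adjusted p = 0.0908) and -0.55 ± 0.16 with anti-CD40 (adjusted p = 0.0556), which did not pass the threshold. Under the slide block both did, at -0.46 (adjusted p = 0.00466) and -0.42 (adjusted p = 0.00371). The mean levels ran from Pam2CSK4 through anti-CD40 with Pam2CSK4, TLR2.CD86, unstimulated and anti-CD40 to anti-CD86, and neighbours in this order lay within 0.12 of each other except across the step of 0.55 from unstimulated to anti-CD40.

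Among 12087 genes, those whose levels followed Tlr2 most closely over the 12 arrays were Treml4 (Pearson r = 0.98), Cd14 (0.969) and Asprv1 (0.962). With each slide's mean removed the values were 0.983, 0.96 and 0.953. These coefficients describe arrays that share slides and conditions. Cd14, a coreceptor of TLR2 and TLR4 that is abundant on monocytes and macrophages, was 3.01 and 3.01 in unstimulated cells and 2.57 and 2.05 with anti-CD40. Its average Pam2CSK4 effect was 0.54 (adjusted p = 0.059), and its average anti-CD40 effect was -0.52 (adjusted p = 0.0435). With the slide block Cd14 was called higher for Pam2CSK4 (adjusted p = 0.000672) and lower for anti-CD86 (-0.42, adjusted p = 0.00231). The 15 myeloid markers tested did not move one way with Pam2CSK4, where 8 average effects were above 0 and 7 below, with a median of 0.02. Among those above 0, C1qc was 0.24, the lysozyme genes Lyz2 and Lyz1 were 0.22 and 0.11, and among those below 0 the integrin Itgam was -0.59 (adjusted p = 0.0035), Mpo was -0.40 and the macrophage receptor Emr1 was -0.24. For either antibody 13 of the 15 were below 0. Of the 15, 0 were called higher and 1 lower for Pam2CSK4, 0 higher and 6 lower for anti-CD40, and 0 higher and 5 lower for anti-CD86. The slide block changed these counts to 2 higher (Cd14 and Lyz2) and 3 lower (Emr1, Itgam and Mpo), to 1 higher and 12 lower, and to 1 higher and 9 lower. The part of myeloid RNA in the Tlr2 values was not tested.

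**Figure D3:**
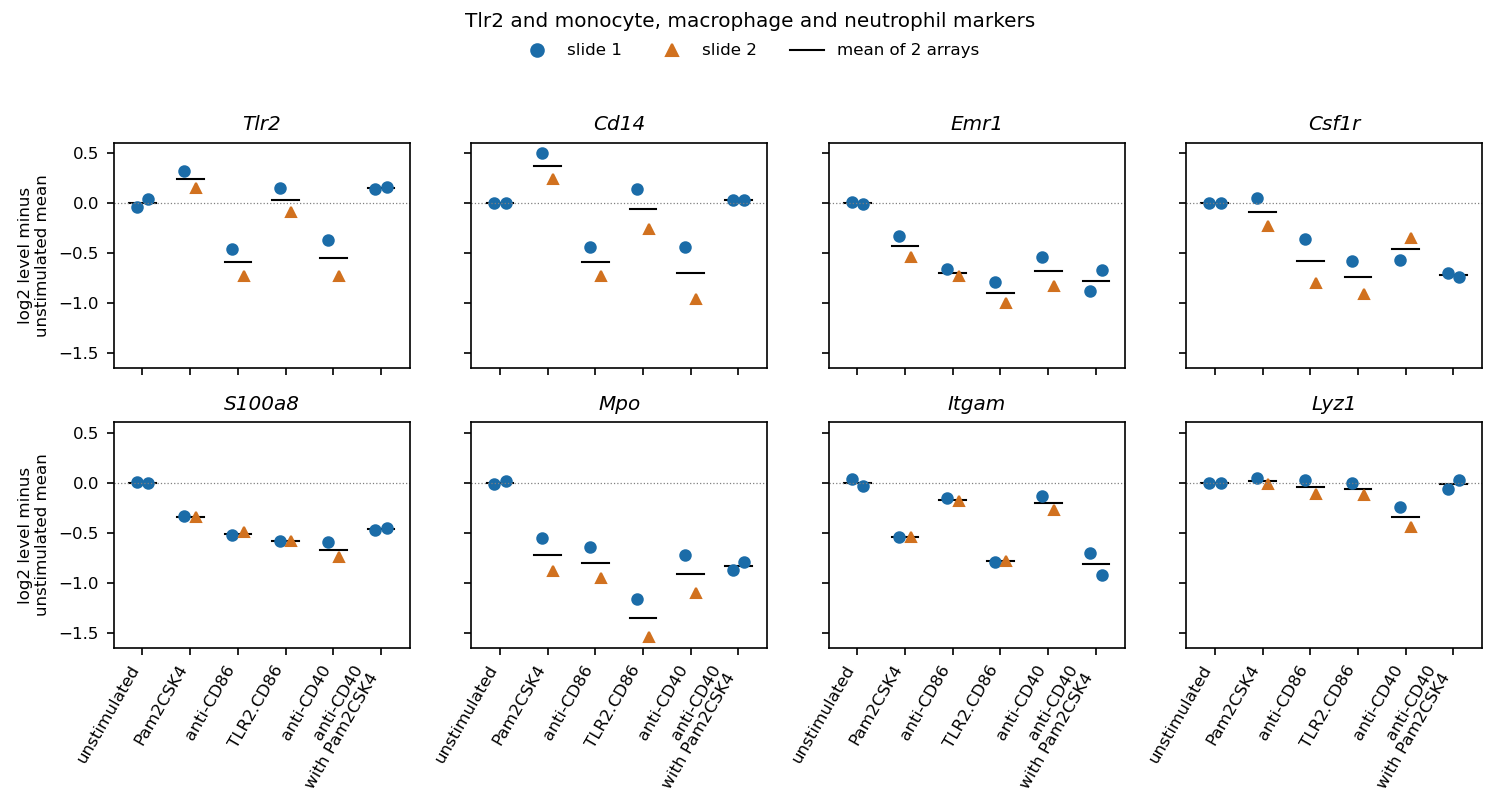
Each panel plots 1 gene as its log2 level minus its mean in unstimulated cells (vertical axis, the same in all panels) for the 12 arrays in the 6 conditions, with circles for slide 1, triangles for slide 2 and a line at the mean of 2 arrays. Tlr2 and Cd14 are lower with either antibody alone and near or above the unstimulated level in each condition with Pam2CSK4. The markers shown are part of the 15 tested, of which 8 average Pam2CSK4 effects were above 0 and 7 below. Not shown are C1qb, C1qc, Clec7a, Csf3r, Lyz2 and S100a9, which were above 0, and Fcgr1 and Ly6g, which were below. Of those shown, Emr1, S100a8, Mpo and Itgam are below the unstimulated level on every stimulated array, and Csf1r on all but the first Pam2CSK4 array. Lyz1 is -0.24 and -0.44 with anti-CD40 and -0.12 to 0.05 in the other stimulated conditions.

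Tlr1, whose product pairs with TLR2 for triacylated lipopeptides, changed most of the genes tested. Its log2 level was 0.59 and 0.54 in unstimulated cells and 2.41 and 2.18 with anti-CD40. It was 2.34 and 2.49 with anti-CD40 and Pam2CSK4. The 4 arrays with anti-CD40 lay above all other arrays. Against unstimulated cells Tlr1 rose by 1.73 ± 0.15 (log2, SE), or 3.31-fold, with anti-CD40 (adjusted p = 0.0011), where 1 of 7 genes was called beside 16.7% of all probes, and with median scaling the value was 1.16 (adjusted p = 0.151). It rose by 1.85 ± 0.15, or 3.61-fold, with anti-CD40 and Pam2CSK4 (adjusted p = 0.000287), where 2 of 7 genes were called beside 18.2%. The average anti-CD40 effect was 1.44 ± 0.11 (adjusted p = 0.000172), and it was called in all 12 fits that left out 1 array.

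Without anti-CD40 the steps of Tlr1 were smaller. Its log2 level was 1.36 and 1.14 with Pam2CSK4, and 0.92 and 0.75 with anti-CD86. It was 1.62 and 1.35 with TLR2.CD86. All these arrays lay above both unstimulated arrays. TLR2.CD86 against unstimulated cells was called, at 0.92 ± 0.15, or 1.89-fold (adjusted p = 0.0157, 1 of 7 genes beside 10.6% of all probes), and the call was lost without either unstimulated array or either TLR2.CD86 array (adjusted p up to 0.122), with median scaling (0.63, adjusted p = 0.597) and without the filter on dim probes (adjusted p = 0.0922). Pam2CSK4 alone, at 0.69 ± 0.15 (adjusted p = 0.128, 0 of 7 genes beside 0.136%), and anti-CD86 alone, at 0.27 ± 0.15 (adjusted p = 0.328, 0 of 7 genes beside 2.14%), were not called. Under the slide block both were, at 0.80 (adjusted p = 0.00441) and 0.38 (adjusted p = 0.00952). Against unstimulated cells that fit called 3 genes for Pam2CSK4, beside 10.8% of all probes, 3 for anti-CD86 beside 28.3%, 3 for TLR2.CD86 beside 34.9%, 4 for anti-CD40 beside 37.1% and 3 for anti-CD40 with Pam2CSK4 beside 47.4%.

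The average Pam2CSK4 effect on Tlr1 was 0.49 ± 0.09 (adjusted p = 0.0284). The exact permutation test over 6 and 6 arrays gave p = 0.266, with arrays from 1.14 to 2.49 with Pam2CSK4 and from 0.54 to 2.41 without, and both sets hold all 3 antibody states. The call was lost in 9 of the 12 fits that left out 1 array and held without either anti-CD40 array or without the second TLR2.CD86 array. The step from anti-CD40 to anti-CD40 with Pam2CSK4 was 0.12 ± 0.15 (adjusted p = 0.677, 95% interval -0.22 to 0.47). The CD40 interaction, which is the effect of both signals minus the sum of the single effects, was -0.56 ± 0.21 (adjusted p = 0.223), and under the slide block it was -0.79 (adjusted p = 0.0108). The CD86 interaction was -0.04 ± 0.21 (adjusted p = 0.988). Under neither interaction was any of the 7 genes called, beside 1.15% of all probes for CD40 and 0.019% for CD86. With the slide block 2 genes were called for CD40, Tlr1 and Tlr4, beside 8.41%, and 1 for CD86, Tlr4, beside 0.234%.

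The difference between TLR2.CD86 and Pam2CSK4 alone did not pass the threshold for Tlr1 (0.23 ± 0.15, adjusted p = 0.716, 95% interval -0.12 to 0.57), in a comparison with 0 of 7 genes called beside 0.0633% of all probes. Against anti-CD86 the value was 0.65 ± 0.15 (adjusted p = 0.255, 0 of 7 genes beside 0.225%), and with the slide block the adjusted p was 0.00661. Anti-CD40 with Pam2CSK4 lay 1.16 ± 0.15 above Pam2CSK4 alone (adjusted p = 0.00395, 1 of 7 genes beside 9.91%), and none of 7 genes was called for anti-CD40 with Pam2CSK4 against anti-CD40, beside 2.9%. With the slide block these 4 comparisons called 1, 2, 3 and 1 genes, beside 10.7%, 7.55%, 31.4% and 15% of all probes. Neighbours in the order of mean Tlr1 levels whose arrays overlapped were anti-CD40 with and without Pam2CSK4, and TLR2.CD86 and Pam2CSK4.

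**Figure D4:**
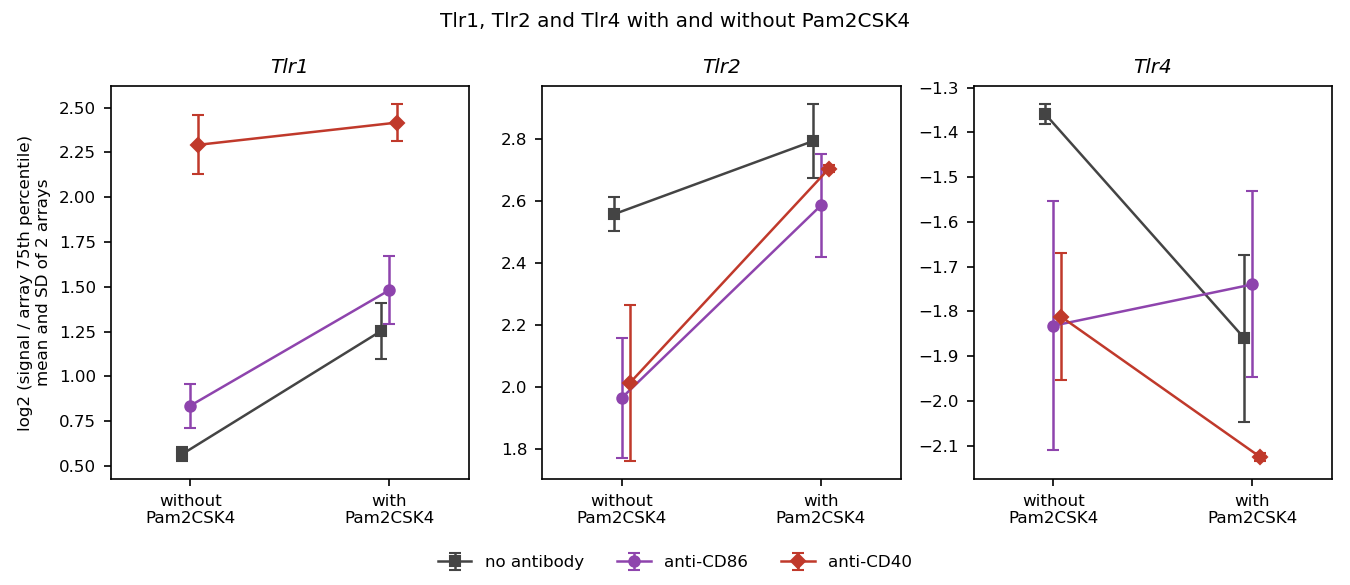
The panels plot the mean log2 level and SD of 2 arrays (vertical axis, different in each panel) of Tlr1, Tlr2 and Tlr4 without and with Pam2CSK4 (horizontal axis) for cells given no antibody, anti-CD86 or anti-CD40. The Tlr1 line of anti-CD40 starts high and is nearly flat (2.29 to 2.42), all Tlr2 lines climb, and Tlr4 is highest in cells given neither antibody nor Pam2CSK4.

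The genes whose levels followed Tlr1 most closely over the 12 arrays were Glt25d1, now named Colgalt1 (Pearson r = 0.994), Eno2 (0.987) and Btbd4, now named Zbtb46 (0.987). The last is a transcription factor known from dendritic cells, and another probe listed as Zbtb46 had an average anti-CD40 effect of 2.71. Of 9 dendritic cell markers, 8 were tested, of which 1 (Zbtb46) was higher and 1 (Clec9a) lower for anti-CD40, and the median change of the 8 was 0.08. With the slide block 1 (Zbtb46) was higher and 3 (Batf3, Clec9a and Itgax) were lower. The summed intensity of the 8 was 7.53 to 7.68 times the 75th percentile in unstimulated cells and 9.73 to 11.9 with anti-CD40, and Zbtb46 alone made up 7.29% to 7.32% and 44.4% to 46.9% of it. Of the 8 average anti-CD40 effects, 5 were above 0 (Ccr9, Flt3, Siglech, Xcr1 and Zbtb46) and 3 below. Without Zbtb46 the sum of the other 7 was 6.98 to 7.12 in unstimulated cells. It was 5.41 to 6.31 with anti-CD40 and 5.10 to 5.16 with anti-CD40 and Pam2CSK4. The other stimulations were lower as well, at 5.62 to 6.28 with Pam2CSK4, 5.96 to 6.85 with anti-CD86 and 4.75 to 5.25 with TLR2.CD86. The part of dendritic cells in the Tlr1 values was not tested.

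Tlr6, the neighbour of Tlr1 and the partner of TLR2 for diacylated lipopeptides, moved less. Its log2 level was 1.00 and 0.96 in unstimulated cells, 1.57 and 1.37 with anti-CD40, and 1.29 and 1.54 with anti-CD40 and Pam2CSK4. It was 1.03 and 0.92 with Pam2CSK4, 0.82 and 0.22 with anti-CD86, and 0.75 and 0.96 with TLR2.CD86. The 4 arrays with anti-CD40 lay above the other 8 arrays, and the anti-CD86 arrays were the farthest apart, on different slides. The average anti-CD40 effect was 0.46 ± 0.14, or 1.38-fold, with an adjusted p of 0.0545, and it was called under the slide block (adjusted p = 0.0244) and among the slide 1 arrays alone (0.49, adjusted p = 0.0388). The average Pam2CSK4 effect was 0.09 ± 0.12 (adjusted p = 0.737), with a 95% interval from -0.18 to 0.36. The genes closest to Tlr6 over the 12 arrays were Clasp1 (r = 0.938), Dusp22 (0.938) and Mtap (0.934).

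Tlr4, the receptor of lipopolysaccharide, was dim and was highest in unstimulated cells. Its log2 level was -1.38 and -1.34 in unstimulated cells, -1.99 and -1.73 with Pam2CSK4, and -2.03 and -1.64 with anti-CD86. It was -1.89 and -1.59 with TLR2.CD86, -1.91 and -1.71 with anti-CD40, and -2.13 and -2.12 with anti-CD40 and Pam2CSK4. On this scale no stimulated array reached the unstimulated arrays, while the intensities before scaling (134 and 121 against 53.9 to 126) overlapped. Tlr4 fell by 0.77 ± 0.17 on the log2 scale, or 1.70-fold, with anti-CD40 and Pam2CSK4 (adjusted p = 0.0194), and the call was lost without either unstimulated array or either array of that condition (adjusted p up to 0.113), with median scaling (-0.87, adjusted p = 0.582) and without the filter on dim probes (adjusted p = 0.0806). With normexp background correction the value was -0.31 and was not called. Those 4 arrays lay on slide 1.

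The other stimulations did not pass the threshold for Tlr4, at -0.50 with Pam2CSK4, -0.47 with anti-CD86, -0.38 with TLR2.CD86 and -0.45 with anti-CD40 (adjusted p of 0.109 to 0.249). Under the slide block, where Tlr4 has a smaller spread, the values were -0.64, -0.62, -0.52 and -0.60 (adjusted p of 0.000892 to 0.00577). The Tlr4 interactions in that fit were 0.74 for CD86 (adjusted p = 0.0438) and 0.48 for CD40 (adjusted p = 0.0328), and without the block 0.59 (adjusted p = 0.969) and 0.19 (adjusted p = 0.625). A positive interaction here says that both signals together lowered Tlr4 by less than the sum of the single differences. Tlr4 and the sum of 13 myeloid markers given above were both highest in unstimulated cells. Among the stimulations, TLR2.CD86 had the highest mean Tlr4 level and the lowest array of this sum, most of which came from Mpo and S100a8. Without these 2 genes the sum was 41.1 to 47.1 with TLR2.CD86 and was lowest with anti-CD40 (32.4 to 38.7). The part of myeloid RNA in the Tlr4 values was not tested. Ly96, which codes for the TLR4 partner MD-2, was 0.77 in unstimulated cells and was not called in the 3 average comparisons (0.03, 0.05 and -0.39), while the slide block called it lower for anti-CD86 (-0.27, adjusted p = 0.00411).

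The endosomal receptors Tlr7 and Tlr9 changed little beside the slides. For Tlr9, the receptor of CpG DNA, the log2 level was 1.35 and 1.39 in unstimulated cells, 1.46 and 1.93 with Pam2CSK4, and 1.34 and 1.74 with anti-CD86. It was 1.53 and 1.91 with TLR2.CD86, 1.43 and 1.85 with anti-CD40, and 1.45 and 1.57 with anti-CD40 and Pam2CSK4. The 4 highest arrays were the 4 of slide 2. Without the slide block, 0 of 14 comparisons was called for Tlr9, with log2 values from 0.04 to 0.35 in the average comparisons and those against unstimulated cells. With the block 1 was called, the average Pam2CSK4 effect of 0.12 ± 0.03 (adjusted p = 0.0379), which is 1.09-fold.

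For Tlr7, the receptor of single-stranded RNA, the lowest, median and highest of the 12 log2 levels were -0.08, 0.32 and 0.65. The anti-CD86 and TLR2.CD86 arrays of slide 2 were the lowest, at -0.08 and -0.05, and the unstimulated arrays were 0.53 and 0.39. Tlr7 was called in 0 of 14 comparisons with or without the slide block. Without it, the values ran from -0.34 to -0.04 in the average comparisons and those against unstimulated cells, and the 95% interval of the average Pam2CSK4 effect was -0.35 to 0.28.

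Ly86, the MD-1 partner of RP105, was highest in unstimulated cells, with a log2 level of 4.48 and 4.54. It was 4.49 and 4.28 with Pam2CSK4, 4.24 and 4.16 with anti-CD86, and 4.23 and 3.94 with TLR2.CD86. It was 4.26 and 3.94 with anti-CD40, and 4.27 and 4.23 with anti-CD40 and Pam2CSK4. Apart from the first Pam2CSK4 array, all stimulated arrays lay below both unstimulated arrays. None of 14 comparisons was called (lowest adjusted p = 0.101, for anti-CD40 against unstimulated cells at -0.41 ± 0.15). The slide block called 7, among them the average anti-CD40 effect of -0.27 (adjusted p = 0.00456) and the average anti-CD86 effect of -0.24 (adjusted p = 0.0122). The average Pam2CSK4 effect was -0.03 ± 0.09 (adjusted p = 0.905), with a 95% interval from -0.23 to 0.17.

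Genes that act with these receptors were counted in lists, first without and then with the slide block, for the average effects of Pam2CSK4, anti-CD40 and anti-CD86 in this order. Of the 5 remaining TLR genes on the array, Tlr5 and Tlr8 were not well above background on any array, and of the 3 tested Tlr11 was lower with anti-CD40 (-0.63, adjusted p = 0.0067) and with anti-CD86 (-0.63, adjusted p = 0.0229). With the block 1, 2 and 3 of these were lower and none was higher. Of 14 chaperones and accessory proteins tested, 0 were called for Pam2CSK4. For anti-CD40, Cd14, the scavenger receptor Cd36 and the lysosomal protease Ctsb were lower and the lectin Lman2 higher. For anti-CD86, Cd36 and Hsp90b1, a chaperone of TLR folding, were lower (-0.47 for Hsp90b1, adjusted p = 0.0466) and Lman2 higher. Unc93b1, which carries the endosomal TLRs out of the endoplasmic reticulum, was not called in the 3 average comparisons (-0.15, -0.42 and -0.24) and was called lower in all 3 with the block (adjusted p of 0.0133, 0.000198 and 0.024). The block gave 2 higher (Cd14 and Lman2) and 5 lower for Pam2CSK4, among the latter the proteases Ctsb, Ctsl and Lgmn, then 1 higher and 7 lower, and 2 higher and 6 lower.

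Among 19 adaptors and kinases tested, Irak4, a kinase bound by MyD88, was called higher in all 3 average comparisons (0.52, 0.60 and 0.53), at a dim level that was well above background on 11 arrays. Traf6, the ubiquitin ligase that acts after it, was higher with anti-CD40 (0.77, adjusted p = 0.0007). Peli1, another ubiquitin ligase of this pathway, was lower with Pam2CSK4 (-0.41, adjusted p = 0.0258) and with anti-CD40 (-0.78, adjusted p = 0.0009), and Peli2 was lower with Pam2CSK4. Irak3, an inhibitor of the pathway, and the adaptor Ecsit were lower with anti-CD40 (-0.69 and -0.66). Myd88 was not called in any of the 3 (0.12, 0.24 and 0.22), and with the block it was called higher for anti-CD40 (adjusted p = 0.0063) and anti-CD86 (0.27, adjusted p = 0.00775). The list held 1 higher and 2 lower, 2 higher and 3 lower, and 1 higher and 0 lower, and with the block 5 and 5, 6 and 8, and 7 and 4. Its median change without the block was between -0.02 and -0.01 in each.

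Of 26 transcription factors and early targets, 9 were higher and 0 lower for Pam2CSK4, with a median of 0.30 against -0.01 for all probes. They were the cytokines Tnf (1.26), Il6 (0.98) and Il10 (0.63), the chemokines Cxcl2 (0.88) and Ccl3 (0.62), the inhibitor-like NF-kB regulators Nfkbiz (1.60), Nfkbid (0.83) and Nfkbie (0.38), and the B cell factor Irf4 (0.77). For anti-CD40, 12 were higher and 1, Ccl3, lower, with a median of 0.45, among them Irf4 (1.57), Nfkbid (1.49), Nfkbie (1.18), Nfkb2 (0.96) and Rel (0.49). For anti-CD86, 0 were higher and 3 lower (Ccl3, Il6 and Rel). The block raised the counts to 19 higher and 0 lower, 18 higher and 3 lower, and 5 higher (Irf5, Nfkb1, Nfkb2, Nfkbid and Rela) and 8 lower. Of 11 signalling partners of RP105 tested, the kinase Pim1 was higher with Pam2CSK4 (0.74) and anti-CD40 (1.66). The B cell signalling genes Btk (-0.93), Lyn (-0.46) and Bank1 (-0.35) were lower with anti-CD40. With the block the partners gave 3 higher and 1 lower, 4 higher and 6 lower, and 4 higher and 0 lower. Blnk, among those higher with anti-CD40, was saturated on all 12 arrays.

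The remaining marker lists were counted in the same way. Of 9 B cell markers, 2 (Fcer2a and Ms4a1) were higher with anti-CD40 and 0 were called for Pam2CSK4 or anti-CD86, while with the block 5 were higher and 0 lower, 3 higher and 4 lower, and 4 higher and 1 lower. Of 6 marginal zone and B-1 markers, 0, 3 and 2 were lower, and with the block 1 (Cd9), 6 and 4. Of 9 T cell markers 1 (Thy1) was lower with anti-CD86, and with the block 0, 2 and 3 were lower. Of 6 NK cell markers 0, 3 and 2 were lower, and with the block Prf1 was higher for Pam2CSK4 and 3 were lower with each antibody. Of 6 red cell and platelet markers Pf4 was lower with each antibody, and with the block it was lower in all 3 comparisons, Alas2, Hba-a1 and Hbb-b1 were higher for Pam2CSK4 and Hbb-b1 was higher for anti-CD40. For Pam2CSK4, 1 dendritic cell marker was higher and 2 were lower, and for anti-CD86 2 (Batf3 and Clec9a) were lower. With the block these counts were 2 higher and 5 lower, and 1 higher and 3 lower. The shares of all probes called in these comparisons, given above, rose with the block as well.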

How the data were processed

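Cy3-labelled RNA was measured on a custom Agilent mouse array (annotated to mm9), and the authors extracted the images with Feature Extraction 10.5.1.1. From the deposited scanner output, the processed intensity of each spot, which is corrected for background within its array, was taken as log2 minus the array's 75th percentile. A deposited table of log2 values, equal to this intensity on the log2 scale minus 1 constant per array, served as an alternative. Control and outlier spots (5 to 35 per array) were left out and saturated spots were kept. Each array had 61657 spots, of which 46.6% to 60.6% were well above background. The highest share was on the second anti-CD40 array, whose median intensity was 51.2, against 17.3 to 33.5 on the other arrays. Precision is limited by the number of arrays.

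The filter kept 31664 of 61307 probes, those detected above background in both samples of some condition, and the 31596 with no missing value were tested over 12 arrays (limma 3.58.1, R 4.3.3) with a coefficient for each condition, empirical Bayes moderation and Benjamini-Hochberg adjustment over all probes for each of 14 comparisons. A gene with several probes is given by its brightest. The slide of each array was read from the chip barcode in the scanner output, and the slide was added as a block in a separate fit. The 26 alternatives also cover normalization, background correction, filters, moderation and each array left out. Likeness is the Pearson r over 12 arrays with the brightest probe of each named gene, for the 3 members with the widest range of condition means. Motifs were searched in RefSeq windows of GRCm38.p6, which has entries here for 7 of the 9 genes and none for Tlr4 and Tlr7. The genes, lists, motifs and comparisons were chosen with earlier results of these data known. Figures and tables were made with Python 3.11.15 and matplotlib 3.10.9.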

Additional observations from a re-analysis of the deposited data

Results flagged for a closer look

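The interaction of 3 gene and antibody pairs passed the threshold in the fit with the slide as a block, and none of them did without it. The CD40 interaction of Tlr1 was -0.79 on the log2 scale, which says that anti-CD40 with Pam2CSK4 lay below the sum of the single effects, and Tlr1 was near the same level with anti-CD40 whether or not Pam2CSK4 was present. The interactions of Tlr4 were 0.74 for CD86 and 0.48 for CD40, with single effects of -0.64 (Pam2CSK4), -0.62 (anti-CD86) and -0.60 (anti-CD40) in the same fit. Both unstimulated arrays enter every single effect, and they lay on slide 1 only. Both arrays of anti-CD40 with Pam2CSK4, which enter the CD40 interactions, also lay on slide 1 only, while those of the single signals were split. The interactions in this fit therefore depend on the fitted difference between slides. It called 8.41% of all probes for the CD40 interaction and 0.234% for the CD86 interaction.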

How the results depend on the processing

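Counts of genes called are given in the order average Pam2CSK4, anti-CD40 and anti-CD86, then Pam2CSK4, anti-CD86, TLR2.CD86, anti-CD40 and anti-CD40 with Pam2CSK4, each against unstimulated cells, then TLR2.CD86 against Pam2CSK4 and against anti-CD86, anti-CD40 with Pam2CSK4 against Pam2CSK4 and against anti-CD40, then the CD86 and CD40 interactions. They were 2, 1, 0, 0, 0, 1, 1, 2, 0, 0, 1, 0, 0 and 0 as reported. With the slide block they were 4, 5, 4, 3, 3, 3, 4, 3, 1, 2, 3, 1, 1 and 2. With the replicate number as a block they were 2, 5, 3, 0, 2, 2, 4, 2, 0, 0, 1, 1, 0 and 0. Within slide 1 they were 0, 5, 0, 0, 0, 2, 3, 3, 0, 0, 1, 0, 0 and 0. Median normalization gave 0, 1, 0, 0, 0, 0, 0, 1, and 0 in the rest, and quantile normalization gave 2, 5, 1, 0, 1, 2, 3, 2, 0, 0, 1, 1, 0 and 0. Normexp gave 3 for average anti-CD40, 2 for anti-CD40, 1 for anti-CD40 with Pam2CSK4 and 1 for its comparison with anti-CD40. Without the filter on dim probes 0, 1 and 0 were called in the averages, 0 for TLR2.CD86 and 1 for anti-CD40 with Pam2CSK4. With probes well above background on all 12 arrays, 2 were called for average anti-CD40 and 2 for anti-CD40. Trend and robust moderation gave 2 and 1 for the anti-CD40 and anti-CD86 averages, 2 for anti-CD40 and 1 for anti-CD40 with Pam2CSK4 against anti-CD40. Slide block with median normalization, added after seeing the data, gave 2, 4, 0, 0, 0, 1, 2, 2, and 0 in the rest. Slide block with quantile normalization, added likewise, gave 3, 5, 3, 3, 3, 4, 4, 4, 1, 2, 3, 1, 0 and 1. Leaving out 1 array gave 0 to 2 for average Pam2CSK4, 1 to 2 for average anti-CD40, 0 to 1 for TLR2.CD86, 1 to 3 for anti-CD40, 1 to 2 for anti-CD40 with Pam2CSK4, 0 to 1 for its comparison with anti-CD40, and no change elsewhere. The authors' values and leaving out saturated probes changed no count. Of all 31596 probes, 901, 6448 and 2142 were called for the 3 averages as reported. Median normalization called 332, 573 and 55 of them, and quantile normalization called 1442, 7417 and 3032. For the remaining alternatives except the slide block, the share of all probes called is not given. A change in a count is therefore not a result about these genes.

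Of the 39 gene and comparison values called with or without the slide block, 1 changed sign, the CD40 interaction of Tlr1, which was 0.089 under median normalization. That scaling moved the median change of all probes from -0.01 to -0.58 for anti-CD40 against unstimulated cells, and the Tlr1 value there was 1.16. Of the other 59 values, 41 changed sign under at least 1 alternative. The replicate numbers did not pair the samples of all conditions. Deviations correlated at 0.54 to 0.67 among the 4 conditions split over slides, where replicate and slide coincide. They correlated at -0.11 to 0.07 with unstimulated cells or anti-CD40 with Pam2CSK4. Taking the mean over probes added nothing, as each gene tested had 1 probe. Within slide 2 the comparisons left no spread to test. Levels near background (Tlr3, Cd180) could not be measured.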
